A study of Mus musculus with 25 samples.

Results

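The comparison set 14 months against 6 weeks in small extracellular vesicles from mouse liver. Small extracellular vesicles are membrane-bound particles that cells release, and they carry microRNAs (miRNAs). Members were chosen by the age in the sample titles: 10 of the 25 libraries of the study, 5 mice numbered 21 to 25 at 14 months and 5 mice numbered 6 to 10 at 6 weeks, with 1 library per mouse. All 10 mice were wild-type C57BL/6J, given no treatment that the labels name. Vesicles of both ages were obtained by enzymatic dissociation of frozen liver and ultracentrifugation. Males and females were said to be equal in number, but the sex of each mouse was not given, so sex could not be entered in any test. The label for batch repeats the age, so age and any difference in handling cannot be told apart. A deposited table of counts held 1493 entries, of which 1095 carry a miRNA name and 398 are named unconservative with a pair of numbers.

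A miRNA is cut from a hairpin precursor that has a 5p and a 3p arm. It is loaded onto an Argonaute protein and lowers the output of messenger RNAs that pair with its seed, bases 2 to 8 counted from its 5′ end. In liver the hepatocyte miRNA miR-122-5p outweighs every other one, and vesicles from tissue mix those of hepatocytes with those of endothelial, stellate, biliary and blood cells. In such a mixture, fewer vesicles of a cell type and less of a miRNA per vesicle cannot be told apart.

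The sequences of the miRNAs that were higher at 14 months show which of them can share targets and which can share reads. They are RefSeq mature sequences (GRCm38.p6, the build that the authors name as mm10), written 5′ to 3′ with the seed in capitals. The first 3 share a seed and belong to the miR-29 family, the next pair share a seed and lie side by side on chromosome X, and each sequence after them has a seed of its own among the 13 miRNAs that were higher.
miR-29a-3p: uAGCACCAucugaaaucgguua
miR-29c-3p: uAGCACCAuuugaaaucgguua
miR-29b-3p: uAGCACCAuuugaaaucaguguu
miR-221-3p: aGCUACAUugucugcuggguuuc
miR-222-3p: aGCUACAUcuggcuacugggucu
miR-741-3p: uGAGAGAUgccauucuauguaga
miR-3065-5p: uCAACAAAaucacugaugcugg
miR-184-3p: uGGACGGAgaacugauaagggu
miR-137-3p: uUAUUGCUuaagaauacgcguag
miR-152-3p: uCAGUGCAugacagaacuugg
miR-194-5p: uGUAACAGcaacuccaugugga
miR-182-5p: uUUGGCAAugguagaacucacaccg
miR-101c: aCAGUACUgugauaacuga
Of 339 tested miRNA names, 293 had a mature sequence in this table. The miRNAs miR-29c-3p and miR-29a-3p differ by the single substitution U10C, counted from the 5′ end with the base of miR-29c-3p first. In no library did their counts differ by more than 0.018 on the log2 scale, so they cannot be told apart and are 1 result. Counts of entries below hold them as 2. The 19 bases of miR-101c are contained in the 21 bases of miR-101a-3p. Of the 13 higher miRNAs, 10 begin with U, against 45.7% of the tested miRNAs with a sequence.

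Across the table, 15 of 391 tested entries (3.84%) differed between 14 months and 6 weeks at an adjusted p of 0.05 (edgeR quasi-likelihood test, Benjamini-Hochberg over all tested entries). Higher at 14 months were 13 (3.32%) and lower were 2 (0.512%), and 9 of the 15 differed by at least 2-fold. At an unadjusted p under 0.05 there were 92 entries. Of all tested entries 188 had a positive and 203 a negative log2 fold change, with a median of -0.04. DESeq2 called 21, all 15 among them. With miR-29a-3p and miR-29c-3p taken as 1, the 15 were 14 results, 12 higher and 2 lower. Levels below are counts per 1000000 (CPM) scaled with TMM factors, means carry their SD with n = 5 at each age, and log2 fold changes carry their SE.

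**Figure D1:**
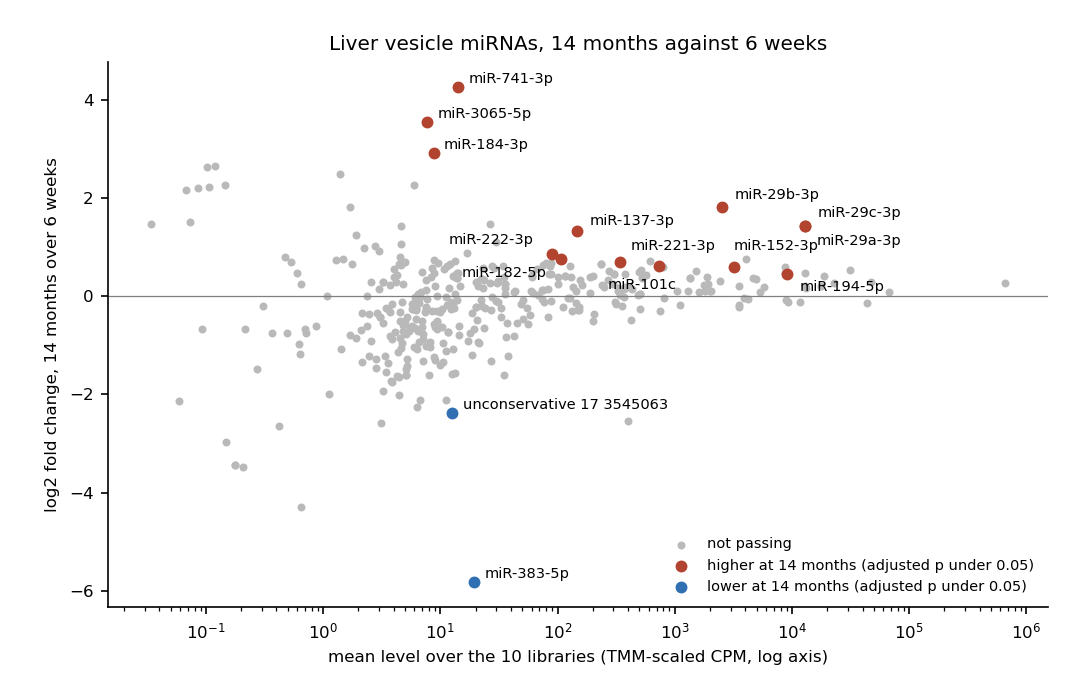
The 391 tested entries by mean level over the 10 libraries (TMM-scaled CPM, log axis) and log2 fold change of 14 months over 6 weeks, with the 15 called entries named. The largest called changes, up to 4.27 and down to -5.83, lay below 50 CPM, while the miR-29 members combined a rise of 1.44 or more with levels above 1000 CPM.

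The largest rise at a high level was that of miR-29, a family that represses collagens and other matrix genes. The level of miR-29b-3p was 2880, 3072, 3979, 4052 and 5780 CPM in the 14-month libraries, against 949, 931, 1188, 917 and 1613 CPM in the 6-week libraries. Every 14-month library lay above every 6-week library, a 3.53-fold difference (log2 fold change 1.82 ± 0.25, edgeR adjusted p = 2.09e-05). The level of miR-29c-3p was 10663, 13209, 19112, 26237 and 25155 CPM in the 14-month libraries, against 5275, 5079, 6275, 6623 and 11417 CPM in the 6-week libraries. Here the ranges overlapped, because mouse 10, at 11417 CPM, lay above mouse 21, at 10663 CPM. The log2 fold change was 1.44 ± 0.30 for miR-29c-3p and for miR-29a-3p (edgeR adjusted p = 0.00443 for each). Without mice 6 and 7, a choice made after seeing the data, both were at 1.16 and did not pass (edgeR adjusted p = 0.0734).

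Both miR-29 loci hold a pair of precursors: Mir29c (chr1:195037547-195037634, plus strand) lies beside Mir29b-2, in an exon of the noncoding transcript A330023F24Rik, and Mir29a (chr6:31062660-31062747, minus strand) lies beside Mir29b-1. Of the opposite arms of these hairpins, miR-29b-1-5p was too rare to be tested, with 22 counts at 14 months and 8 at 6 weeks. The others did not pass. Counts of miR-29c-5p summed to 664 over the 14-month and 332 over the 6-week libraries, a log2 fold change of 0.04 ± 0.24 (edgeR adjusted p = 0.919). Those of miR-29a-5p summed to 99 at 14 months and 40 at 6 weeks, with a log2 fold change of 0.39 ± 0.45 (edgeR adjusted p = 0.617). For miR-29b-2-5p, with 63 counts at 14 months and 15 at 6 weeks, it was 1.06 ± 0.71 (edgeR adjusted p = 0.383). A ratio of arms within a library does not depend on the scaling. The log2 ratio of miR-29c-3p to miR-29c-5p was 8.07 ± 0.99 at 14 months and 6.62 ± 0.69 at 6 weeks, and that of miR-29a-3p to miR-29a-5p was 11.02 ± 0.67 at 14 months and 9.83 ± 0.41 at 6 weeks. The differences were 1.44 for miR-29c, 1.19 for miR-29a and 0.89 for miR-29b-3p over miR-29b-2-5p. None passed after adjustment over the 5 pairs with both arms tested (exact two-sided permutation p = 0.0397, 0.0159 and 0.0397, adjusted p = 0.0661 each, where the smallest p that 5 against 5 allows is 0.00794). The other 2 pairs, of miR-152 and miR-194, had adjusted p = 0.151 each.

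The largest rises in fold were those of rare miRNAs that were nearly without counts at 6 weeks. The X-linked miR-741-3p, known from testis, had 38, 38, 36, 34 and 138 counts in the 14-month libraries, against 0, 0, 1, 6 and 0 counts in the 6-week libraries. Its level was 27.2 ± 12.3 CPM at 14 months and 1.26 ± 2.31 CPM at 6 weeks (log2 fold change 4.27 ± 0.74, edgeR adjusted p = 0.00121), and the groups did not overlap. Of its 7 counts at 6 weeks 6 came from mouse 9, without which the log2 fold change was 6.50. The precursor Mir741 lies at chrX:66796805-66796875 on the minus strand.

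For miR-3065-5p there were 18, 19, 29, 26 and 53 counts in the 14-month libraries, against 1, 1, 0, 2 and 2 counts in the 6-week libraries. Its level was 14.3 ± 2.11 CPM at 14 months and 1.20 ± 0.706 CPM at 6 weeks, without overlap (log2 fold change 3.56 ± 0.75, edgeR adjusted p = 0.00443). Its precursor Mir3065 (chr11:120014767-120014853, plus strand) is transcribed against that of miR-338, which lies in an intron of the kinase gene Aatk. The partner miR-338-3p had 98.1 ± 22.6 CPM at 14 months and 70.8 ± 19.5 CPM at 6 weeks, a log2 fold change of 0.46 ± 0.20 that did not pass (edgeR adjusted p = 0.190). The other arm, miR-3065-3p, was too rare to be tested, with 42 counts at 14 months, at least 1 in each library, against 0 at 6 weeks.

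For miR-184-3p, which is abundant in cornea and lens, counts were 22, 15, 51, 33 and 35 in the 14-month libraries, against 0, 2, 2, 0 and 7 counts in the 6-week libraries. Its level was 15.7 ± 4.46 CPM at 14 months and 1.87 ± 1.89 CPM at 6 weeks, again without overlap (log2 fold change 2.93 ± 0.63, edgeR adjusted p = 0.00452; 3.70 without mouse 10).

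The larger of the 2 falls was that of miR-383-5p, whose precursor sits in an intron of the sarcoglycan gene Sgcz (chr8:38252133-38252202). It had 2, 0, 0, 1 and 3 counts in the 14-month libraries, against 47, 34, 8, 55 and 22 counts in the 6-week libraries. That is 0.607 ± 0.651 CPM at 14 months and 38.1 ± 26.1 CPM at 6 weeks, with every 14-month library below every 6-week library (log2 fold change -5.83 ± 0.66, edgeR adjusted p = 1.17e-06). The second fall was an unconservative entry, number 17_3545063, which the labels do not explain. Its level was 7.47, 3.64, 2.57, 2.63 and 3.72 CPM in the 14-month libraries, against 34.9, 45.7, 12.6, 5.31 and 8.33 CPM in the 6-week libraries, with overlap between the ages (log2 fold change -2.37 ± 0.64, edgeR adjusted p = 0.0329). Its highest levels were those of mice 6 and 7, the shallowest libraries, and without both of them the log2 fold change was -1.21 (edgeR adjusted p = 0.477).

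**Figure D2:**
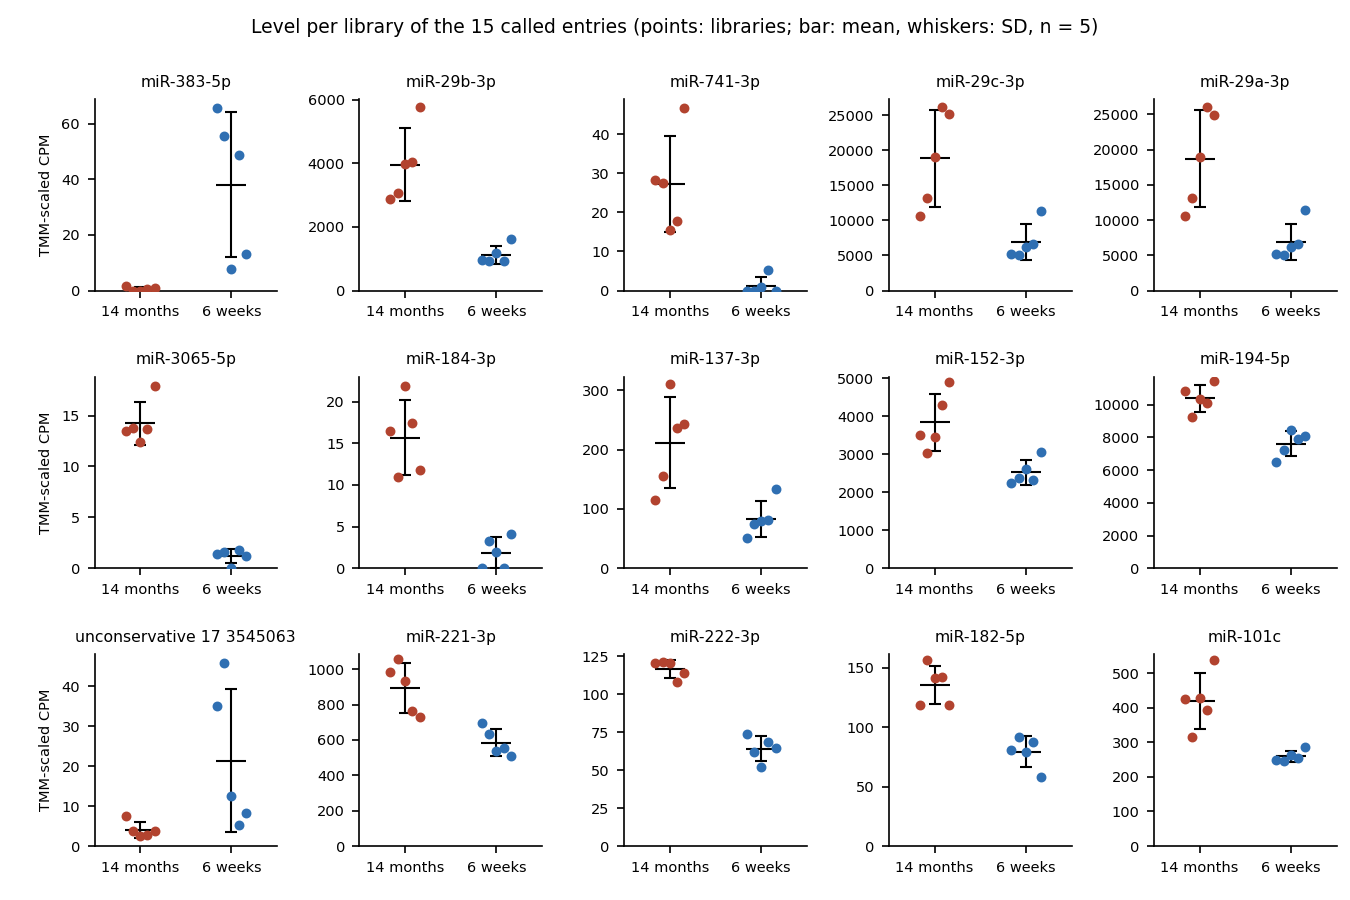
Level (TMM-scaled CPM, linear axis from 0) of each of the 15 called entries in the 5 libraries of 14 months (red) and the 5 of 6 weeks (blue), with the mean as a bar and the SD as whiskers. In 10 of the 15 the points of the ages do not overlap, and miR-383-5p is nearly absent at 14 months.

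The other 7 miRNAs that passed were higher by smaller factors. The neighbours miR-221-3p and miR-222-3p, which repress the cell cycle inhibitor p27, lie at chrX:19146294-19146388 and chrX:19146893-19146971. The level of miR-221-3p was 985, 1057, 933, 765 and 728 CPM in the 14-month libraries, against 695, 632, 540, 553 and 507 CPM in the 6-week libraries (log2 fold change 0.61 ± 0.16, edgeR adjusted p = 0.0329). The level of miR-222-3p was 117 ± 5.86 CPM at 14 months and 64.2 ± 8.03 CPM at 6 weeks (log2 fold change 0.86 ± 0.24, edgeR adjusted p = 0.0429). In both the ages did not overlap.

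In the cluster of miR-182, miR-183 and miR-96, known from sensory cells and as a target of the sterol regulator SREBP, miR-182-5p passed. Its level was 119, 156, 141, 142 and 119 CPM in the 14-month libraries, against 81.0, 91.4, 79.4, 87.7 and 58.3 CPM in the 6-week libraries, without overlap (log2 fold change 0.77 ± 0.22, edgeR adjusted p = 0.0445). Its neighbours did not pass: miR-96-5p was at 1.11 ± 0.36 (edgeR adjusted p = 0.0860) and miR-183-5p at 0.64 ± 0.32 (edgeR adjusted p = 0.209).

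Of the remaining miRNAs that passed, miR-137-3p, known from neurons, had 212 ± 76.8 CPM at 14 months and 83.7 ± 30.3 CPM at 6 weeks (log2 fold change 1.33 ± 0.35, edgeR adjusted p = 0.0329). The ages overlapped, with mouse 21 at 116 CPM below mouse 10 at 133 CPM. The hepatocyte miRNA miR-194-5p was at 10403 ± 826 CPM at 14 months and 7630 ± 778 CPM at 6 weeks, without overlap (log2 fold change 0.45 ± 0.12, edgeR adjusted p = 0.0329). Its cluster partner miR-192-5p did not pass, at 0.30 ± 0.20 (edgeR adjusted p = 0.396). The level of miR-152-3p, a regulator of the DNA methyltransferase Dnmt1 hosted by an intron of Copz2, was 3836 ± 747 CPM at 14 months and 2526 ± 334 CPM at 6 weeks (log2 fold change 0.60 ± 0.16, edgeR adjusted p = 0.0329). Its seed is shared with the more abundant miR-148a-3p, at 0.10 ± 0.17 (edgeR adjusted p = 0.732), and with miR-148b-3p, at 0.39 ± 0.15 (edgeR adjusted p = 0.144). The last, miR-101c, was at 420 ± 81.0 CPM at 14 months and 259 ± 16.6 CPM at 6 weeks (log2 fold change 0.70 ± 0.20, edgeR adjusted p = 0.0471). The longer miR-101a-3p, at 5202 ± 551 CPM at 14 months and 4036 ± 456 CPM at 6 weeks, did not pass (0.37 ± 0.14, edgeR adjusted p = 0.135).

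Over the 391 tested entries, 23 (5.88%) had all 14-month libraries above all 6-week libraries and 8 (2.05%) had all of them below. Of the 15 called entries, 9 of the 13 higher and 1 of the 2 lower were so separated. Leaving out each of the 10 libraries in turn, 7 calls were kept every time: miR-383-5p, miR-29b-3p, miR-741-3p, miR-29a-3p, miR-29c-3p, miR-3065-5p and miR-184-3p. Each of the other 8 was kept in 1 to 5 of the 10 fits, with an adjusted p of at most 0.215 where it was lost. With library totals alone the 7 and the unconservative entry passed, and the other 7 higher miRNAs did not (edgeR adjusted p from 0.0954 to 0.461). The number of calls was 8 without mouse 23, 24 or 25, and 22 without mouse 22.

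The called miR-741-3p belongs to the Fmr1-Slitrk2 cluster, a run of testis-expressed miRNA genes between 66776757 and 67988451 on chromosome X, and most of the cluster was too rare to be tested singly. The table held 33 of its entries, of which 2 were tested. Because 5 of the 33 repeat the counts of another member in every library, 28 distinct entries were summed. The summed level was 66.5, 50.2, 48.1, 55.3 and 105 CPM in the 14-month libraries, against 8.38, 1.63, 6.78, 14.2 and 5.95 CPM in the 6-week libraries. The ages did not overlap. The sum rests on 685 counts at 14 months and 40 at 6 weeks, and without miR-741-3p on 401 at 14 months and 33 at 6 weeks. At least 1 count was found for 24 distinct entries at 14 months and for 10 at 6 weeks, and 23 of the 28 had more counts at 14 months. These 3 numbers use raw counts, not scaled for depth, and mean library totals were 2457390 at 14 months and 1046872 at 6 weeks. More counts at 14 months are therefore no measure of a rise, and no share over all entries stands beside them. The sums and these numbers are a description without a test.

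Among the untested members, 7 distinct ones had counts in every 14-month library and none at 6 weeks. Of these, 3 had at least 20 counts at 14 months, and the other 4 had 10 to 14. The 6-week libraries were shallower, with a mean total of 1046872 against 2457390 at 14 months. A lack of counts at 6 weeks therefore says less for the rarer 4. Over all 1102 untested entries, those with this pattern and at least 20 counts were these 3, the repeats miR-465b-3p and miR-465c-3p, and miR-3065-3p from outside the cluster. For entries with fewer counts no such share is given, so the rarer 4 are not shown to be particular to the cluster. The sequences of the 3, shown because these miRNAs rest on few counts, have seeds that differ from each other and from that of miR-741-3p.
miR-743a-3p: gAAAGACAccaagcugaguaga
miR-871-3p: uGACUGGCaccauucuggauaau
miR-465a-3p: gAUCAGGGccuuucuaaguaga
With 93 counts pooled over the 14-month libraries, miR-743a-3p was 16.2-fold above a floor of 3 counts pooled over the 5 libraries of 6 weeks. Of its counts 54 came from mouse 25. The ratio was 9.68-fold without that library and 10.9-fold without mouse 10. It was 8.70-fold for miR-465a-3p, with 50 counts, and 8.53-fold for miR-871-3p, with 49 counts. These ratios of pooled counts leave out the spread between mice, so they are no lower bounds for the ages. The entries miR-465b-3p and miR-465c-3p repeat the counts of miR-465a-3p and are not separate results. The second tested member, miR-547-3p, had 44 counts at 14 months and 19 at 6 weeks and did not pass (log2 fold change 0.24 ± 0.61, edgeR adjusted p = 0.807).

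**Figure D3:**
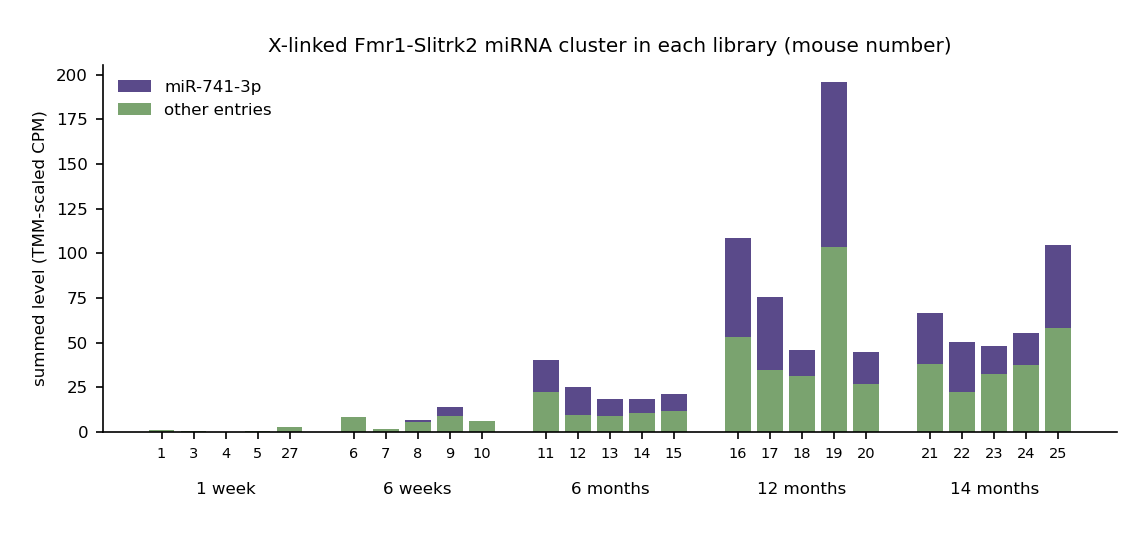
Summed level (TMM-scaled CPM) of the X-linked Fmr1-Slitrk2 cluster in each of the 25 libraries, numbered by mouse and grouped by age, with miR-741-3p in purple and the other distinct entries in green. The 14-month libraries, at 48.1 CPM or more, lie above all 6-week libraries, at 14.2 CPM or less, and the highest single library is one of 12 months, at 196 CPM.

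Across the ages the summed level of the cluster was 0.976 ± 1.09 CPM at 1 week, 7.38 ± 4.54 CPM at 6 weeks, 24.6 ± 9.17 CPM at 6 months, 94.2 ± 62.5 CPM at 12 months and 65.0 ± 23.4 CPM at 14 months. For miR-29b-3p the means were 75.6 CPM at 1 week, 1119 CPM at 6 weeks, 2413 CPM at 6 months, 3446 CPM at 12 months and 3953 CPM at 14 months. For miR-383-5p they were 22.3 ± 6.52 CPM at 1 week, 38.1 ± 26.1 CPM at 6 weeks, 2.63 ± 1.04 CPM at 6 months, 0.219 ± 0.309 CPM at 12 months and 0.607 ± 0.651 CPM at 14 months. The mean of miR-383-5p at 6 months lay below its lowest 6-week library, at 7.75 CPM.

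**Figure D4:**
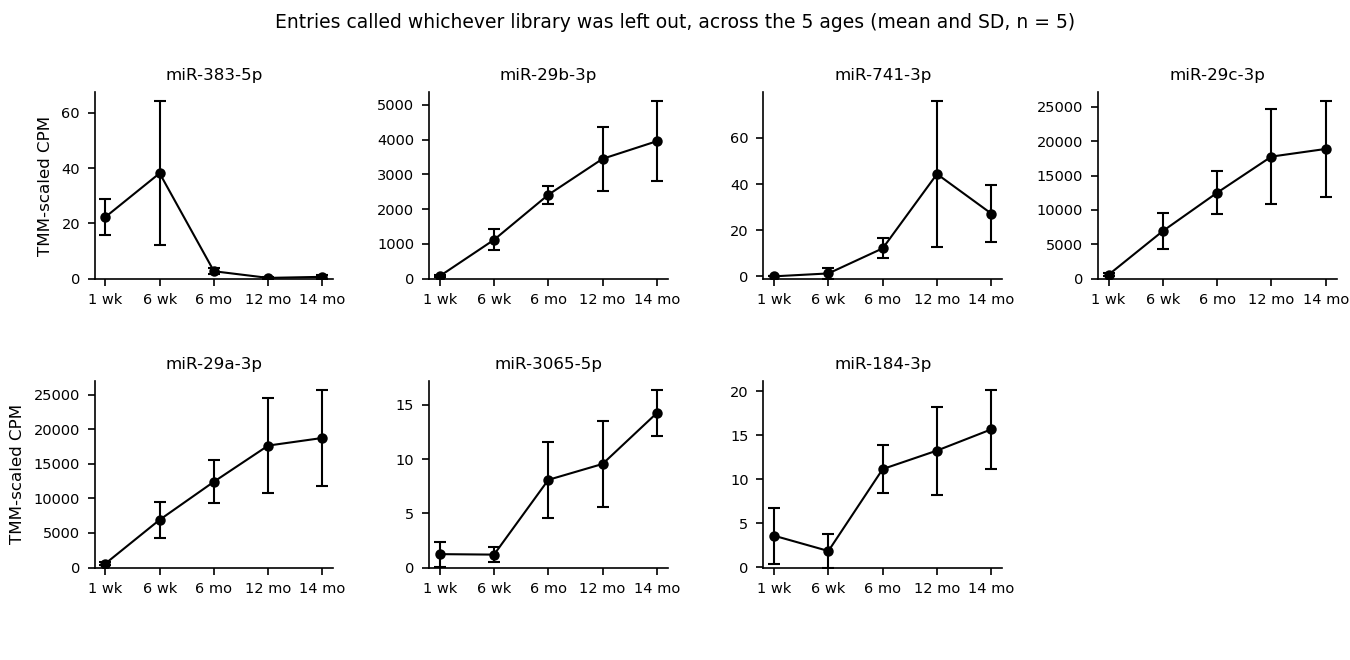
Mean level (TMM-scaled CPM, linear axis; whiskers are the SD, n = 5 at each age) of the 7 entries called whichever single library was left out, from 1 week to 14 months. The mean of miR-29b-3p is 1119 CPM at 6 weeks, 3446 CPM at 12 months and 3953 CPM at 14 months, and miR-741-3p is highest at 12 months, at 44.3 CPM.

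Whether 14 months differs from the intermediate ages was tested directly in the same edgeR model. No entry passed for 14 months against 12 months (0% of 391; 8 at an unadjusted p under 0.05; 0 with DESeq2) or for 14 months against 6 months (0%; 30 at an unadjusted p under 0.05; 0 with DESeq2). Against the same 6-week libraries, 5.63% of entries passed at 12 months and 1.79% at 6 months. These comparisons share their 6-week libraries with that of 14 months, so their overlap is not a result. For miR-29b-3p the log2 fold changes against 6 weeks were 1.11 for 6 months, 1.62 for 12 months and 1.82 for 14 months. For miR-3065-5p they were 2.72 for 6 months, 3.00 for 12 months and 3.56 for 14 months. The called miRNA with the smallest p between 14 months and 6 months was miR-182-5p. Its level was 79.6 ± 12.8 CPM at 6 weeks, 75.7 ± 14.1 CPM at 6 months, 91.3 ± 18.0 CPM at 12 months and 135 ± 16.3 CPM at 14 months. Its difference between 14 months and 6 months was 0.84 (edgeR unadjusted p = 0.000717, adjusted p = 0.281), and with log2 library total in the model it was 1.02 ± 0.22 and passed (edgeR adjusted p = 0.0343).

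Library depth moved with age. Totals were 1543907, 1605433, 2505655, 2642180 and 3989776 counts in the 14-month libraries, against 757330, 641579, 1012376, 1084868 and 1738208 counts in the 6-week libraries. Their means were 2457390 ± 993097 at 14 months and 1046872 ± 426813 at 6 weeks (exact two-sided permutation p = 0.0238, adjusted p = 0.0860 over 13 measures of the libraries). Only mice 21 and 22 and mouse 10 had totals in the range that both ages share, 1543907 to 1738208. At 14 months a library detected 679 ± 22.6 entries, against 617 ± 36.5 at 6 weeks. At the total of the shallowest library, 641579, the expected number was 493 ± 39.5 at 14 months and 553 ± 28.7 at 6 weeks (adjusted p = 0.0860 in the exact permutation test for each). A floor of 3 counts equals 1.01 CPM in the deepest of the 10 libraries and 4.90 CPM in the shallowest.

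The fold changes moved with level. Of 169 tested entries below 10 CPM 54 were positive, with a median log2 fold change of -0.43, and of 45 entries at 1000 CPM or more 36 were positive, with a median of 0.23. The filter used all 25 libraries, and 30 of the 391 tested entries lay under 1 CPM over the 10 compared here. Entry type moved with level too. Of 52 tested unconservative entries 51 were negative, 38 of them below 10 CPM, and among the 131 miRNA names below 10 CPM 54 were positive, with a median of -0.24. The unconservative entries held 0.0539% ± 0.0297 of counts at 14 months and 0.165% ± 0.125 at 6 weeks (exact two-sided permutation p = 0.0397, adjusted p = 0.0860). Scaling by library totals alone shifted the entries by a median of -0.26, and the median at 1000 CPM or more was then -0.03. The TMM factors ran from 0.719 to 0.930 at 14 months and from 0.947 to 1.04 at 6 weeks. In the libraries of 6 and 12 months, which enter the model's scaling and spread but not the difference between 14 months and 6 weeks, the slope of log2 CPM on log2 library total within age was computed for each entry. Across the 391 entries the log2 fold change of 14 months over 6 weeks had a Spearman correlation of 0.42 with this slope, a description in which entries share libraries and composition. Of the 13 higher miRNAs 10 had a slope above 0, against 54.2% of tested entries.

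With log2 library total as a covariate, 7 entries passed in edgeR, and 6 of these were among the 15. The log2 fold change was then -5.36 for miR-383-5p, 4.47 for miR-741-3p, 3.92 for miR-3065-5p, 2.87 for miR-184-3p, 1.20 for miR-29b-3p (adjusted p = 0.000713) and 1.09 for miR-182-5p (adjusted p = 0.0146). It was 0.65 for miR-29a-3p and for miR-29c-3p, which no longer passed (adjusted p = 0.219). When every library was thinned to 641579 counts, miR-383-5p, miR-29b-3p, miR-741-3p, miR-29a-3p and miR-29c-3p passed. There miR-3065-5p and miR-184-3p fell below the filter and were not tested. The 3 libraries of shared depth set 2 libraries against 1, in a model that also held libraries of other ages. The spread therefore comes from those ages as well as from mice 21 and 22. Mouse 10 adds nothing to it and is assumed to vary like the rest. No entry passed there (28 of 545 at an unadjusted p under 0.05 in edgeR), which says nothing of whether the calls depend on depth, and their values are given as a description. In these, miR-29a-3p was at 10531 and 13090 CPM in mice 21 and 22, against 11383 CPM in mouse 10, so mouse 10 lay between them. For miR-29b-3p the values were 2880 and 3072 CPM in mice 21 and 22, against 1613 CPM in mouse 10. For miR-741-3p they were 28.4 and 27.6 CPM in mice 21 and 22, against no count in mouse 10.

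**Figure D5:**
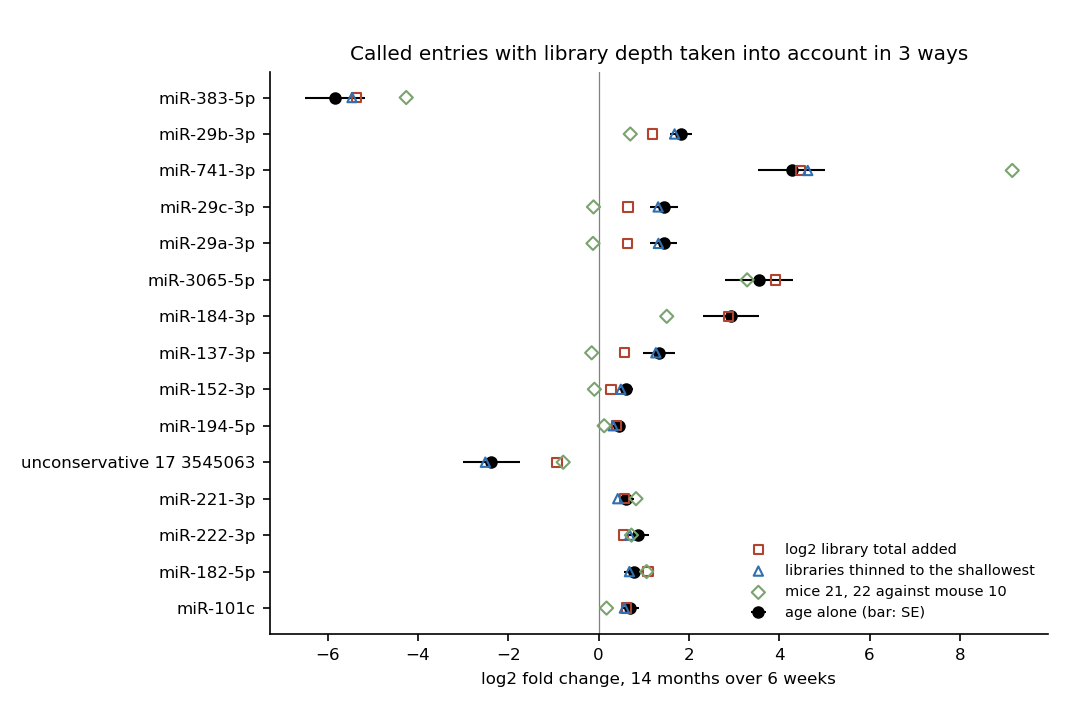
Log2 fold change of 14 months over 6 weeks for the 15 called entries with age alone (black, bar for the SE), with log2 library total added, after thinning, and between mice 21 and 22 and mouse 10, where a single library stands for 6 weeks. The rare miR-741-3p and miR-3065-5p stay above 3 wherever they were tested, while miR-29a-3p and miR-29c-3p lie at 0.65 with the covariate and just under 0 between the 3 libraries; the point for miR-741-3p at 9.16 has no count in mouse 10 and is no bound.

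The labelled tissue was checked by its markers. The share of counts held by miR-122-5p was 58.4% ± 2.49 at 14 months and 58.4% ± 2.75 at 6 weeks, and the 12 hepatocyte miRNAs together held 71.1% ± 2.05 at 14 months and 71.8% ± 2.08 at 6 weeks. Scaled with TMM factors, miR-122-5p was at 717544 ± 90267 CPM at 14 months and 593234 ± 39400 CPM at 6 weeks. That log2 fold change of 0.27 ± 0.12 did not pass (edgeR adjusted p = 0.199). The endothelial arms of miR-126a held 3.87% ± 0.670 at 14 months and 5.00% ± 0.338 at 6 weeks, with 4 of the 5 libraries of 14 months below all those of 6 weeks (exact two-sided permutation p = 0.0238, adjusted p = 0.0860). On the scaled level the 2 arms had opposite signs and neither passed. The more abundant miR-126a-3p was at -0.13 ± 0.16 (edgeR adjusted p = 0.622) and miR-126a-5p at 0.20 ± 0.20 (edgeR adjusted p = 0.564). The erythroid share was 0.0222% ± 0.00499 at 14 months and 0.0346% ± 0.0147 at 6 weeks, and the immune share was 0.674% ± 0.235 at 14 months and 0.571% ± 0.0745 at 6 weeks. The muscle list held 0.000882% ± 0.000131 at 14 months and 0.000557% ± 0.00028 at 6 weeks. Of the 13 library measures 6 had an exact permutation p under 0.05 and none passed after adjustment, and the part of depth or of any cell type in the called changes was not tested beyond the fits above.

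Grouped by function, no list held a fall in edgeR, and DESeq2 called 1 member lower, miR-409-5p of the Dlk1-Dio3 cluster. Of 6 tested miR-29 entries 3 rose and 3 did not pass, with a median log2 fold change of 1.25, against -0.04 over all 391 entries and 0.10 over the 339 miRNA names. Of 11 miRNAs tied to ageing and senescence 3 rose, the same miR-29 members, and 8 did not pass (median 0.73, or 0.45 with library totals alone). Of the 8, miR-155-5p of activated immune cells was at 1.47 (edgeR adjusted p = 0.119) and miR-34a-5p, a target of p53, at 0.73 (edgeR adjusted p = 0.202), while miR-21a-5p, linked to fibrosis, was at 0.41 ± 0.27 (edgeR adjusted p = 0.380). The lowest member was miR-181a-5p, named after its value was seen, at -0.76 ± 0.28 (edgeR adjusted p = 0.135). In the list for lipid and cholesterol metabolism 2 of 21 rose, miR-29a-3p and miR-182-5p, and 19 did not pass (median 0.31, or 0.04 with library totals alone). These counts stand beside 3.32% of all tested entries called higher and 0.512% called lower, so a lack of falls is no trait of the lists.

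Of 12 hepatocyte miRNAs 1 rose, miR-194-5p, against 3.32% of all tested entries, and the median was 0.29. In edgeR none passed among 8 immune (median 0.29), 7 stellate and smooth muscle (0.41), 7 biliary and other epithelial (0.13), 5 erythroid (-0.21), 2 endothelial (0.03) and 2 muscle miRNAs (0.79). At an unadjusted p under 0.05 there were 3 immune, 3 stellate and 1 epithelial miRNA, all higher, and 0 in the other 3 lists, and DESeq2 called 0 in all 6. Of 5 neural and endocrine miRNAs 1 rose, miR-137-3p (median 0.15). None of 10 let-7 miRNAs passed in edgeR (median 0.24), nor of 5 miR-30 (-0.08), 6 miR-17-92 (0.04), 35 Dlk1-Dio3 (-0.24) and 3 H19 and Igf2 miRNAs (-2.59). Their numbers at an unadjusted p under 0.05 were 4, 0, 0, 5 and 2, and DESeq2 called 0 apart from miR-409-5p. The H19 and Igf2 values rest on few counts, the most abundant being miR-483-5p with 11 counts at 14 months and 40 at 6 weeks, 33 of the 40 in mouse 10. Some Dlk1-Dio3 values also rest on few counts. Among them, miR-487b-3p had 0 counts at 14 months and 5 at 6 weeks, while its mean at 1 week was 10.7 CPM. With library totals alone the medians of the endothelial (-0.25), epithelial (-0.13), neural (-0.11), let-7 (-0.03) and miR-17-92 lists (-0.23) turned negative, those of the hepatocyte (0.01) and immune lists (0.02) lay near 0, and that of the miR-29 family was 0.95. Of the entries next in order of p, miR-409-5p was at -1.62 ± 0.50 (edgeR adjusted p = 0.0783) and miR-592-5p, from an exon of the glutamate receptor gene Grm8, at 2.27 ± 0.72 (edgeR adjusted p = 0.0852). In both the ages did not overlap. For miR-409-5p this rests on few counts: 7 in mouse 23, at 3.00 CPM, against 2 in mouse 7, at 3.27 CPM.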

How the data were processed

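Per the labels, vesicle RNA was made into QIAseq miRNA libraries and read on an Illumina instrument. The authors deposited raw counts per entry; the submitters' processing notes name Bowtie, edgeR and mm10, with no version. If reads or molecules were counted is not given in the sources used here, so floors cover counting error only. Entries passing edgeR's filterByExpr, 391 of 1493, were fitted in one quasi-likelihood model of all 25 libraries (edgeR 4.0.16, limma 3.58.1, R 4.3.3; TMM, robust spread), which was tested on simulated data. The biological coefficient of variation was 37.6%. SEs are the log2 fold change over the root of its F statistic. Library measures and arm ratios, with 0.5 added to each count, had exact two-sided permutation tests (scipy 1.17.1). DESeq2 1.42.0 was an alternative. Replicates are separate mice.

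Named were every call, the 10 next by p, the 5 most abundant entries, partners of calls by arm, seed or a precursor within 10 kb, and up to 4 members per list. Entries of extreme sums outside this rule were chosen after their values were seen. The members and lists were chosen with earlier results of these data known. Host genes are from GENCODE on the same build. Library totals at 14 months and 6 weeks ran from 641579 to 3989776 counts. Alternatives covered scaling, filter, tool, samples fitted, depth and single libraries.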

Additional observations from a re-analysis of the deposited data

Results flagged for a closer look

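Within an age, 5 values stood far from the other 4 (Dixon's test over 56 groups, of which chance gives about 1 in 20). At 6 weeks these were miR-741-3p in mouse 9, at 5.31 CPM, and miR-29c-3p and miR-29a-3p in mouse 10, at 11417 CPM and 11383 CPM; the miR-29 pair have nearly equal counts and are 1 result. Mouse 10 is the deepest 6-week library. At 14 months they were miR-3065-5p in mouse 25, the deepest library, at 17.9 CPM, and the unconservative entry 17_3545063 in mouse 21, the shallowest library of 14 months, at 7.47 CPM.

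Among the entries too rare to be tested, 6 had at least 20 counts, at least 1 of them in every 14-month library, and none at 6 weeks. The mean level at 14 months was 8.02 CPM for miR-743a-3p, 5.61 CPM for miR-871-3p, 4.64 CPM for each of miR-465a-3p, miR-465b-3p and miR-465c-3p, which repeat the same counts, and 3.68 CPM for miR-3065-3p. When no filter was applied, edgeR called 24 of 1493 entries, all of these among them, with adjusted p from 1.33e-06 for miR-743a-3p to 0.00522 for miR-3065-3p. They had been picked for this same difference in the same libraries, so the calls are no separate evidence.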

How the results depend on the processing

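No paired analysis was possible because no mouse number occurs at more than 1 age. Against the 15 calls (13 higher, 2 lower), library totals alone gave 6 higher and 5 lower, DESeq2 gave 6 lower, no filter gave 24 with 5 lower, and a mean of at least 10 CPM gave 7 higher. Of the 15, library totals kept 8, DESeq2 size factors 12 and no filter 10. At 10 CPM or more, 13 of the 15 were tested and 9 kept. A fit of the 10 libraries alone gave 28 (20 higher, 8 lower) and one of the 20 adult libraries 23 (5 lower), each with all 15 among them. A log2 library total covariate gave 7 (5 higher), thinning gave 5 (4 higher, 1 lower), and the libraries of shared depth gave 0, with 0 higher and 0 lower (28 at an unadjusted p under 0.05 in edgeR). Without mice 6 and 7 together, a choice made after seeing the data, 10 passed, 1 of them lower, and 6 of the 15 were among them; miR-29a-3p and miR-29c-3p were then at 1.16 each (adjusted p = 0.0734). Leaving out 1 library gave 8 to 22 calls, 7 to 16 higher and 1 to 6 lower. For 14 months against 12 months and against 6 months, leaving out 1 library gave 0 to 0 calls in edgeR, and the covariate gave 1 for 14 months against 6 months, higher.

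Entries whose ages do not overlap numbered 23 higher and 8 lower. Counted afresh in each setting, the number higher was 15 with size factors, 8 with library totals and 12 at 10 CPM or more. It was 13 in the 20 adult libraries and 9 after thinning. The number lower was 14 with library totals, 4 in the 10 libraries, 4 after thinning and 18 without mice 6 and 7. The settings tested unlike numbers of entries: 391 with size factors or library totals, 216 at 10 CPM or more and 281 in the adult libraries. Thinning left 274, the 10 libraries 246, and the fit without mice 6 and 7 had 449. Part of each change can therefore come from the entries tested. Leaving out 1 library gave 21 to 43 higher and 6 to 24 lower. Between 2 libraries and 1, 135 and 200 of the entries do not overlap by construction. The difference in library totals ran from 1027422 to 1638889 and that in entries detected from 48.3 to 73.6 when 1 library was left out. Signs turned only between the libraries of shared depth: miR-29c-3p was at -0.11, miR-29a-3p at -0.12, miR-137-3p at -0.15 and miR-152-3p at -0.094; there mouse 10 alone stands for 6 weeks, and the cause was not tested. Over all settings, values of the called entries kept their call in 198, lost it in 109 and turned sign in 4.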

Other observations

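Some miRNAs passed in other fits but not in the one reported. In the fit of the 10 libraries alone, where the spread comes from these ages, miR-155-5p, induced in activated immune cells, was higher at 14 months by 1.38 ± 0.26 (edgeR adjusted p = 0.00401). The pair miR-103-3p and miR-107-3p, hosted by pantothenate kinase genes and tied to insulin sensitivity, were higher by 0.58 and 0.57 (edgeR adjusted p = 0.0152 each); their counts are nearly equal, so they are 1 result. The imprinted miR-335-5p, hosted by Mest, was lower, at -0.57 ± 0.16 (edgeR adjusted p = 0.0320). In the fit of all ages these were at 1.47, 0.66, 0.66 and -0.48 and did not pass. They were named after their values were seen.

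The unconservative entry 10_2277460, also chosen after its values were seen, had the largest fitted difference above 100 CPM among those that did not pass, at -2.53 ± 0.96 (edgeR adjusted p = 0.135). Its level was 209, 247, 33.9, 63.7 and 38.2 CPM in the 14-month libraries, against 2173, 846, 154, 186 and 49.98 CPM in the 6-week libraries. The lowest of the 6-week values was in mouse 10, the deepest library of that age. Among untested entries, miR-706 had 6 counts at 14 months and 21 at 6 weeks, with every 14-month library below every 6-week library in CPM. That separation rests on 1, 1, 2, 1 and 1 counts in the 14-month libraries, against 5, 2, 7, 5 and 2 in the shallower 6-week libraries.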
